A study of Mus musculus with 11 samples.

Results

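Protocadherins are cell adhesion proteins of the cadherin superfamily, and 34 of them were followed in 11 RNA-seq libraries of mouse nucleus accumbens shell. They are the protein-coding genes of GENCODE M21 whose symbol is Pcdhb plus a number (22 genes, the beta cluster) or Pcdh plus a number, with Pcdh11x (12 genes, called dispersed here), out of 52550 genes in the count table. The alpha and gamma clusters were left out because their transcripts share exons. Each library holds poly(A) RNA from tissue punches of mice aged 8 weeks on a CBA/C57BL6J/129svEmx mixed background, under an animal code. The series concerns reduced Rarb (retinoic acid receptor beta) signalling together with a mutation that causes Huntington disease, carried by the R6/1 line, which expresses a fragment of human huntingtin with an expanded repeat. Of 12 animals 1 was dropped by the submitters at quality control. The labels of the remaining libraries name no R6/1 or Rarb genotype, and therefore none was assigned and no genotypes were compared.

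In neurons the clustered protocadherins are switched on by choice among neighbouring promoters, so that neighbouring cells carry different sets, and like sets on opposing membranes bind each other. This recognition is known for keeping the branches of 1 neuron apart. CTCF and cohesin hold the chosen promoters against distant enhancers. Beta-cluster genes each code for a whole protein without the shared last exons of the alpha and gamma clusters. The dispersed genes, most of them delta protocadherins, have their own promoters, show regional patterns in the brain, and signal through long cytoplasmic tails. Pcdh17 and Pcdh10 are known from complementary zones of the mouse basal ganglia.

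Between 24840981 and 48825783 reads per library were assigned to genes. Of 14 markers of striatal projection neurons 14 passed the expression filter (a level of 1 CPM or more, that is reads scaled by library size, in at least 3 libraries, with a median of 10 reads or more). Ppp1r1b, which codes for DARPP-32, lay between 438 and 1352 CPM. Slc17a7, a glutamate transporter gene of cortical neurons, lay between 636 and 2118 CPM in the same punches. In bulk RNA, fewer cells of a type and less RNA per cell cannot be told apart. With genotypes unassigned, the spreads and p-values below cover differences between these libraries, which may be technical.

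The beta cluster was expressed as a broad set of low transcripts, and the dispersed genes as a smaller set with some abundant ones. Summed over the 22 beta genes, the level per length was lowest in m74 (25.7 CPM per kb of exon), had a median of 32.2 and was highest in m47 (42.6). Summed over the 12 dispersed genes it was lowest in m101 (56.7 CPM per kb), had a median of 78.3 and was highest in m57 (114). The cluster stood below the dispersed genes in each library, at 0.329 (m57) to 0.531 (m101) of their sum. With the longest coding transcript as length in place of all annotated exons, the median of the dispersed sum was 110.6 CPM per kb. In the middle of the set, the median level per kb was 1.149 CPM among beta members past the filter, 4.55 CPM among dispersed members and 4.99 CPM among all 15373 genes past it. The plot of levels by gene shows these orders.

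**Figure D1:**
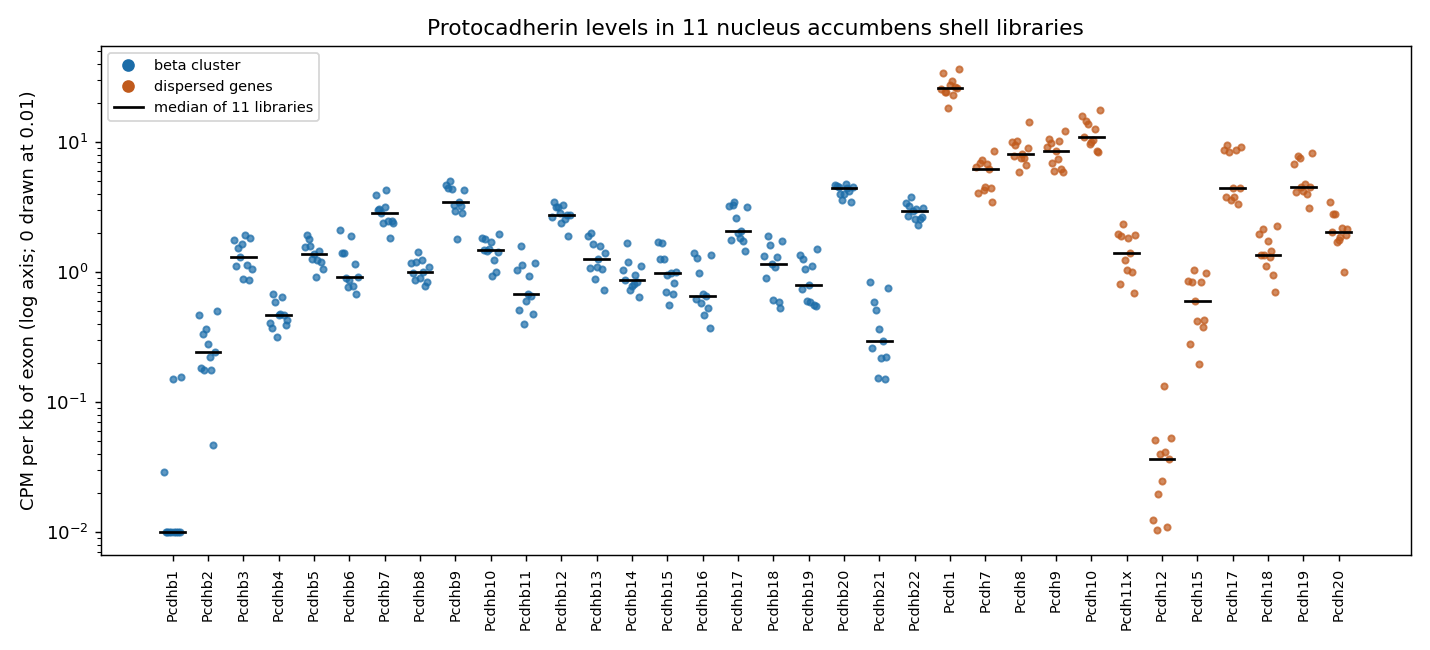
Level of each protocadherin in CPM per kb of exon (vertical log axis) in 11 libraries, 1 point per library, with the median as a black line and a level of 0 drawn at 0.01. Beta-cluster genes stand at the left in their chromosome order and dispersed genes at the right; Pcdhb20 leads the first set at a median of 4.46 CPM per kb and Pcdh1 the second at 25.8.

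The 22 beta genes lie in a row on the plus strand of chromosome 18, from Pcdhb1 (start 37264938) to Pcdhb22 (end 37524479) in mm10. Each has a coding transcript of 1 exon, and 4 of them also have an annotated coding transcript of 2 exons. Counting reads of such paralogs can be uncertain, since a read from a shared stretch can be dropped or split. Among stretches of 50 bases in their annotated transcripts, between 88.7% (Pcdhb21) and 100% (Pcdhb1) were found in no other gene, apart from Pcdhb12 at 35.8%. Pcdhb12 shares 62.9% of its stretches with an antisense transcript, Gm37446. Pcdhb21 overlaps Pcdhb22 by 455 bases of exon. Whether counting used strand is not stated, which leaves Pcdhb12 uncertain. Of the 22 beta genes 21 passed the expression filter.

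Pcdhb20 was the leading beta gene per length. It lay between 12.3 CPM (m74) and 16.9 CPM (m61), with a median of 15.9 CPM, and it was the highest member per kb in 9 of 11 libraries. Its spread, the biological coefficient of variation left after counting error, was 0.0972, the smallest of the cluster. Pcdhb9 came next per kb, at 5.50 CPM (m61) to 15.2 CPM (m47) with a median of 10.5 CPM, and was the highest member in the other 2 libraries. Its spread of 0.273 was 0.197 without m61. Pcdhb22 had a median of 2.97 CPM per kb, and in CPM lay between 15.2 (m89) and 24.9 (m73) with a median of 19.6. Together with Pcdhb7 (median 2.87 CPM per kb) and Pcdhb12 (2.74 CPM per kb) these genes made up the top of the cluster. Their ranges in CPM per kb overlap, so their order is not fixed: Pcdhb22 ran from 2.31 to 3.77, Pcdhb7 from 1.84 to 4.25 and Pcdhb12 from 1.88 to 3.48.

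At the other end of the cluster Pcdhb1, the first gene of the row, was near absent. It had 30 counts in all, with 14 in m57, 13 in m44, 3 in m115 and 0 in the other libraries. A count of 0 allows up to 3 counts, which is 0.0619 to 0.133 CPM in these libraries. Pcdhb2 followed at 0.132 CPM (m83) to 1.42 CPM (m57), on 6 to 53 counts per library, and Pcdhb21 lay between 0.702 CPM (m83) and 3.94 CPM (m115). Pcdhb21 had the largest spread of the cluster, 0.576, and Pcdhb2 the next, 0.522, which was 0.355 without m83. All other beta members past the filter had medians between 0.466 CPM per kb (Pcdhb4) and 4.46 CPM per kb (Pcdhb20).

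Among the dispersed genes Pcdh1, a delta protocadherin also known from airway epithelium, was the highest per kb in 11 of 11 libraries. It ranged from 159.5 CPM in m101 to 320.4 CPM in m57, with a median of 227 CPM and the smallest spread of this set, 0.187. Pcdh10 came next, at 133 CPM in m74, a median of 172 CPM (10.9 CPM per kb) and 278 CPM in m57. Pcdh9, a delta protocadherin of neurons and glia, lay between 39.8 CPM (m74) and 82.7 CPM (m57). Pcdh8, whose rat counterpart arcadlin is induced by synaptic activity, lay between 26.5 CPM (m101) and 64.5 CPM (m57) with a spread of 0.244, or 0.176 without m57. In m89, where the activity-induced gene Arc reached 109 CPM against a median of 29.1 CPM, Pcdh8 stood at 34.0 CPM, under its median of 36.7 CPM. Pcdh8 and Pcdh7 share 9.61% and 21.1% of their exon length with antisense transcripts, so their counts are uncertain.

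Pcdh17, the marker gene of the set, showed the widest break between libraries. It stood at 113 CPM in m115, 122 in m47, 108 in m73, 114 in m89 and 119 in m57. In the other libraries it stood at 48.9 CPM in m49, 46.3 in m101, 57.8 in m44, 49.03 in m61, 43.4 in m83 and 57.4 in m74. No library lay between 57.8 and 108 CPM. Its spread was 0.431, and 0.414 to 0.442 with each library left out.

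The remaining dispersed genes were lower. Pcdh7 lay between 36.7 CPM (m74) and 90.9 CPM (m57). Pcdh19, an X-linked gene mutated in a human epilepsy, lay between 32.3 CPM (m83) and 85.9 CPM (m57). Pcdh11x, the other X-linked member, ran from 9.67 CPM (m74) to 32.6 CPM (m73) and Pcdh20 from 5.49 CPM (m83) to 19.1 CPM (m115). Pcdh18 lay between 3.75 CPM (m74) and 12.2 CPM (m57). Pcdh15, which builds the tip links of hair cells in the inner ear, had the largest spread of the dispersed genes, 0.510, from 4.70 CPM in m61 to 24.4 CPM in m73. The score of oligodendrocyte precursor markers (mean log2 deviation) was -0.36 in m61 and 0.04 in m73, the libraries of lowest and highest Pcdh15. It was also 0.04 in m44, where Pcdh15 stood at 9.98 CPM, and it was highest in m57 (0.40), where Pcdh15 stood at 23.3 CPM. Of the genes in this score, Cspg4, Pdgfra, Tnr and Vcan were higher in m73 than in m61. Olig2 went the other way, at 22.6 CPM in m61 and 19.4 CPM in m73. The part of these cells in the Pcdh15 level was not tested. Pcdh12, a protocadherin of endothelial cells, had only 2 to 18 counts per library and was the 1 dispersed gene under the filter, while the endothelial gene Cldn5 lay between 16.7 and 28.4 CPM.

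Pcdh17, Pcdh10 and Pcdh8 all rose along the library measure described below, Pcdh8 less firmly. Promoters are shown for these genes, Pcdh8 being taken for its activity-induced rat counterpart. They run from 250 bases before to 50 after the RefSeq gene start, were taken from RefSeq on GRCm38.p6, and are written 5′ to 3′ in the direction of transcription. Capitals mark GGGCGG (the GC box), TGACG (the half-site of the cAMP response element) and TATAAA (the TATA box), on either strand. The coordinates are chr14:84443313-84443612 for Pcdh17 (plus strand), chr3:45378148-45378447 for Pcdh10 (plus strand) and chr14:79771263-79771562 for Pcdh8 (minus strand).
Pcdh17: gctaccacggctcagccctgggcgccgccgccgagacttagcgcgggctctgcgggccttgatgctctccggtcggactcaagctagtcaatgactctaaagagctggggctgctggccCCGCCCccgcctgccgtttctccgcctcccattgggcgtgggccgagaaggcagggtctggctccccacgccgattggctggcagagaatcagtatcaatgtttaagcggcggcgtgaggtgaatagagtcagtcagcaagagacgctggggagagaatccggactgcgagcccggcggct
Pcdh10: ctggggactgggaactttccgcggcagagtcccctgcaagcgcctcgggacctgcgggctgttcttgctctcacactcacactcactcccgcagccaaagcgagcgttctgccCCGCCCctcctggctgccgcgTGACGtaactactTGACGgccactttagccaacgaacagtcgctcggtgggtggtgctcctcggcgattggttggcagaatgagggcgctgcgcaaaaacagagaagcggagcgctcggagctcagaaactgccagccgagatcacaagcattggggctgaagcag
Pcdh8: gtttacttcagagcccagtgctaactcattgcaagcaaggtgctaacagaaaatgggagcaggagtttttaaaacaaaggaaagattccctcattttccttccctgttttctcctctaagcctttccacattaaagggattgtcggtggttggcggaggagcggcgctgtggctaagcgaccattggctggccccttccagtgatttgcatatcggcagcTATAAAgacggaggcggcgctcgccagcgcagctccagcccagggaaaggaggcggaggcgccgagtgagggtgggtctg
The table matched 9 dispersed members by symbol. GGGCGG was found in 4 of these 9 promoters (Pcdh10, Pcdh17, Pcdh18 and Pcdh19), against 35.9% of 27025 mouse promoters of the same length. TATAAA was found in Pcdh8 and Pcdh15 (14.2% of all promoters), and TGACG in Pcdh10 and Pcdh9 (21% of all). The half-site AGGTCA, which retinoic acid receptors bind in pairs, was in 0 of the 9 windows and in 16% of all promoters. The full element TGACGTCA, which contains TGACG, was in 0 of the 9 and in 1.88% of all. A match describes letters and shows no binding.

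Both sets of protocadherins varied between libraries more than the middle of all genes. The median spread was 0.273 over the 21 beta members past the filter, 0.312 over the 11 dispersed members past it, and 0.201 over all 15373 genes. A spread above that 0.201 was found in 16 of the 21 beta members and 10 of the 11 dispersed members. Leaving out each library in turn gave 0.267 to 0.287 for the beta cluster and 0.277 to 0.329 for the dispersed genes. The comparison with all genes was not matched for level or exon length. The median level was 4.82 CPM in the beta members, 47.6 CPM in the dispersed members and 23.5 CPM in all genes past the filter. The part of level and length in these spreads was not tested.

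Members tended to vary together. As a description over 11 libraries that share their scaling, the median Pearson r over pairs was 0.39 within the beta cluster (210 pairs) and 0.59 among the dispersed genes (55 pairs). Between a beta and a dispersed gene it was 0.51 (231 pairs), and over all pairs of genes past the filter it was 0.002. An r above 0.5 was found in 38.6% of beta pairs, 76.4% of dispersed pairs and 15.1% of all gene pairs. The closest beta pair was Pcdhb16 with Pcdhb19 (r = 0.93) and the closest dispersed pair Pcdh7 with Pcdh11x (r = 0.93). Pcdh1 had the lowest dispersed pairs, with r of -0.27 with Pcdh15, -0.05 with Pcdh11x and -0.01 with Pcdh20. The median level of the members was 4.82 CPM in the beta cluster and 47.6 CPM in the dispersed genes, and the part of these depths in the lower beta r was not tested.

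Some members followed a property of the libraries, the balance of long and short transcripts, whose part in the r between members was not tested. For each library it is a difference of medians, taken over genes' log2 deviations: the longest 10% of genes against the shortest 10%, without the protocadherins. The measure was lowest in m61 (-0.64), then m83 (-0.46), m74 (-0.42), m101 (-0.22), m49 (-0.10) and m44 (-0.07). It was 0.23 in m89, 0.24 in m73 and 0.38 in m47, and it reached 0.43 in both m115 and m57. The heat map orders the libraries by this measure, and some members shift from low to high along it. Others, such as Pcdhb7, Pcdhb12 and Pcdh1, vary between libraries without such a shift (Pcdhb7 from 6.45 CPM in m83 to 14.9 CPM in m61).

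**Figure D2:**
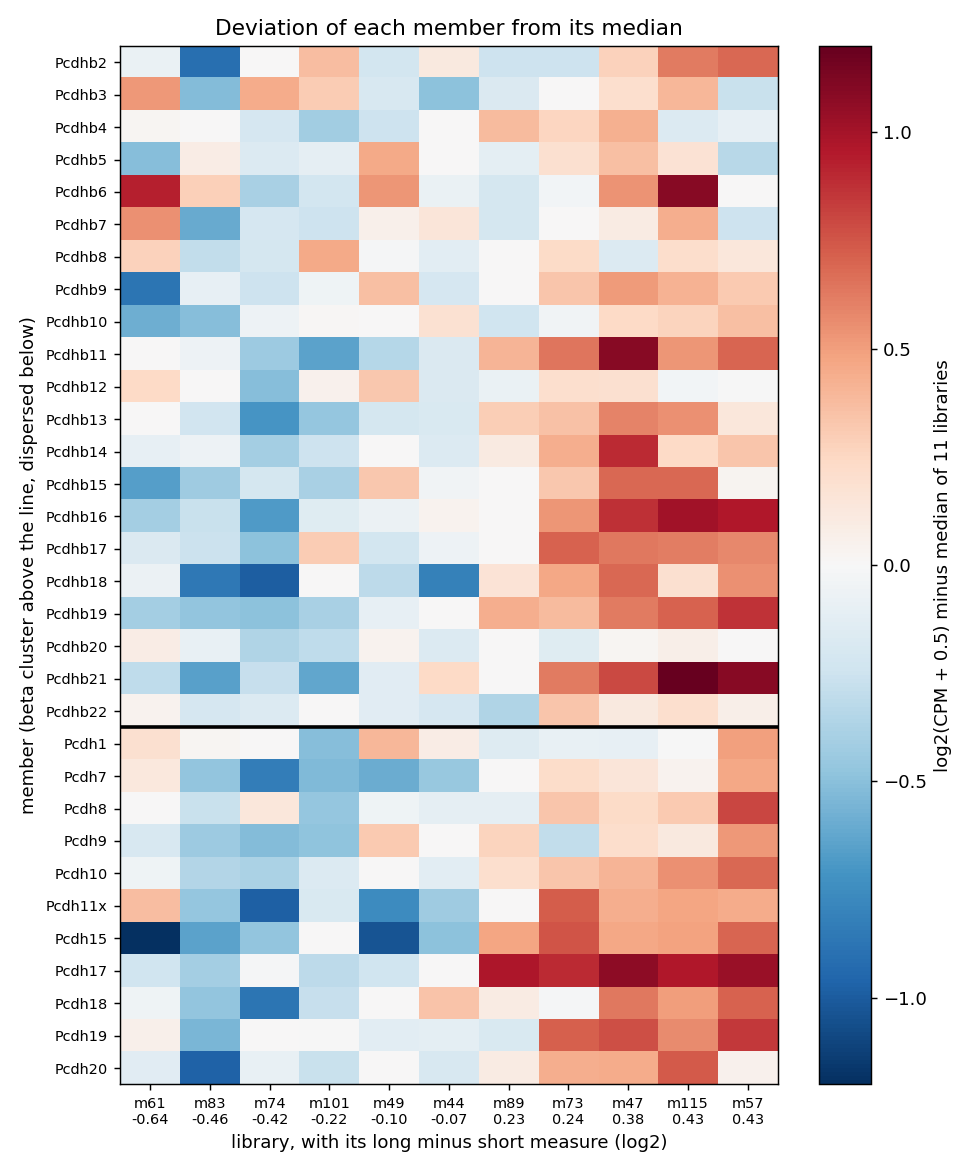
Deviation of each protocadherin past the filter from its own median over 11 libraries, as log2(CPM + 0.5), with beta-cluster genes above the black line and dispersed genes below it. Libraries run from left to right by the long minus short measure printed under each, and Pcdh17 turns from low to high between m44 (-0.07) and m89 (0.23).

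Along this measure 11 of 21 beta members rose and 0 fell, and 8 of 11 dispersed members rose and 0 fell. The test was edgeR's quasi-likelihood test of the slope, adjusted over all 15373 genes, at an adjusted p of 0.05, and it called 18% of all genes as rising and 14.9% as falling. Longer genes rise more often by the make of the measure. Among other genes in the length range of the tested beta genes (2801 to 8695 bases of exon) 16.3% rose and 8.95% fell, and in that of the dispersed genes (4538 to 23773 bases) 31.9% rose and 3.67% fell. The median slope was 0.30 (log2 change per SD of the measure) in the beta cluster, 0.32 in the dispersed genes and 0.01 over all genes. Among cell type scores, that of oligodendrocyte precursors moved most closely with the measure (r = 0.86 over 11 libraries that share their scaling). Its 5 of 5 genes past the filter summed to 199 CPM in m61 and 404 CPM in m57, and 4 of the 5 (Cspg4, Pdgfra, Tnr and Vcan) are in the long tail that defines the measure. Olig2, the list gene in neither tail, was highest in m83 (28.8 CPM, measure -0.46) and lowest in m47 (18.7 CPM, measure 0.38). The other scores had r of 0.18 for astrocytes, 0.03 for endothelium, -0.68 for microglia, 0.11 for neuroblasts, -0.15 for projection neurons, -0.36 for cortical glutamatergic neurons, with myelin given below. C1qa and C1qb, 2 of the 5 microglia genes, are in the short tail that defines the measure. The neuroblast, projection neuron and cortical lists have 2 genes each in the long tail, and the astrocyte and endothelium lists 1 each. The endothelium and projection neuron lists also have 1 each in the short tail. The part of these cell types in the members' slopes was not tested.

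**Figure D3:**
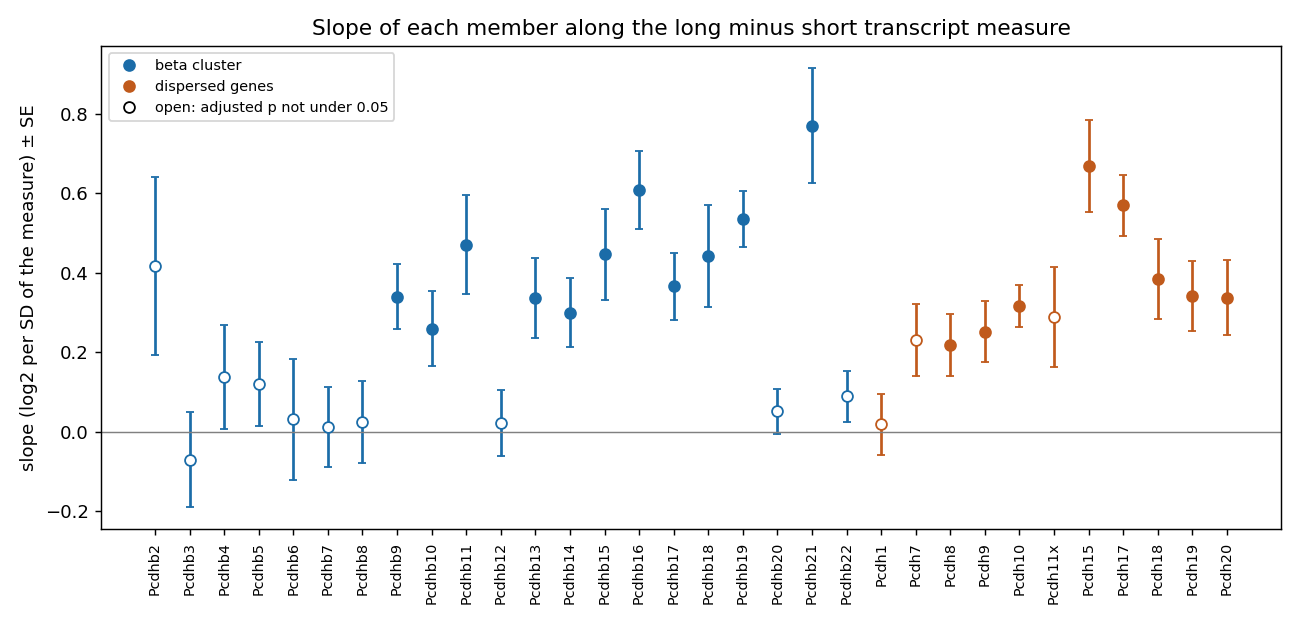
Slope of each protocadherin past the filter along the long minus short measure, in log2 change per SD of the measure, with its SE from edgeR over 11 libraries; filled points passed an adjusted p of 0.05 and open points did not. Beta genes from Pcdhb2 to Pcdhb8 are all open, and the steepest slope is that of Pcdhb21 (0.77).

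Within the beta cluster the genes that rose all stood in the later part of the row. None of the 7 tested genes from Pcdhb2 to Pcdhb8 passed the test, with slopes from -0.07 (Pcdhb3) to 0.42 (Pcdhb2) and a median of 0.03. From Pcdhb9 to Pcdhb22, 11 of 14 rose, with a median slope of 0.35. This division of the row was made after the slopes were seen and was not tested. The 7 earlier genes have 2813 to 3787 bases of exon and the 14 later ones 2801 to 8695 bases. Among other genes, 3.13% rose at 2399 to 3014 bases, 5.43% at 3015 to 3660 and 9.39% at 3661 to 4355. Over the length range of the later genes 16.3% rose, and 38.1% did so at 7523 to 9812 bases. The part of length in this division was not tested. Pcdhb21 had the steepest slope (0.77, SE 0.15, adjusted p = 0.0013 by edgeR), followed by Pcdhb16 (0.61, SE 0.10, adjusted p = 0.000476 by edgeR). Pcdhb19 lay between 3.92 CPM (m74) and 10.8 CPM (m57) and rose too (slope 0.54, SE 0.07, adjusted p = 0.000168 by edgeR). Pcdhb12, Pcdhb20 and Pcdhb22 did not pass, with slopes of 0.02, 0.05 and 0.09. Across the 21 tested beta genes, which are not independent, the slope had an r of 0.28 with exon length and of -0.44 with the GC content of the transcript. Across the 11 tested dispersed genes these r were 0.61 and -0.47. By ranks they were 0.305 and -0.42 in the beta genes and 0.373 and -0.318 in the dispersed genes.

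The members also differed in how closely each followed the rest of the cluster. The r of a member with the summed CPM of the other beta genes was 0.90 for Pcdhb16, 0.87 for Pcdhb13, 0.86 for Pcdhb18 and 0.85 for Pcdhb14 and Pcdhb17. Among the 7 earlier genes it lay between 0.14 (Pcdhb3) and 0.52 (Pcdhb2). Among the 14 later ones it lay between 0.48 (Pcdhb12) and 0.90, with Pcdhb10 at 0.52, Pcdhb20 at 0.56 and Pcdhb9 at 0.59, so the ranges overlap. Outside the protocadherins, the genes whose pattern was most like the summed beta cluster were Gfpt1 (r = 0.98), Hspa13 (r = 0.96), Dennd5b (r = 0.96), Znrf2 (r = 0.96) and Zyg11b (r = 0.95). These r are the highest of all genes over 11 libraries and carry no test. Gfpt1, the first enzyme of the hexosamine pathway, lay between 70.3 CPM (m74) and 115.05 CPM (m47), the same libraries as the lowest and highest beta sums.

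Among the dispersed genes Pcdh15 and Pcdh17 had the steepest slopes. Pcdh15 had a slope of 0.67 (SE 0.12, adjusted p = 0.000722 by edgeR) and Pcdh17 of 0.57 (SE 0.08, adjusted p = 0.000186 by edgeR). Because the Pcdh17 levels fall into separate clusters, a graded relation with the measure cannot be told apart from a step between them. Pcdh10 had no such gap, its largest being 0.193 of its log2 range (slope 0.32, SE 0.05, adjusted p = 0.000625 by edgeR). That gap too has 6 libraries below it, and so has the largest gap of the measure (0.282 of its range). Whether Pcdh10 follows a gradient or a step was not tested. Pcdh18, Pcdh19, Pcdh20, Pcdh9 and Pcdh8 also rose, with slopes of 0.38, 0.34, 0.34, 0.25 and 0.22. Leaving out 1 library ended the call of Pcdh8 for 8 of 11 libraries (adjusted p up to 0.161 by edgeR), of Pcdhb10 for 7 of 11 and of Pcdh9 for 3 (m83, m74 or m57). It also ended the call of Pcdhb13 without m115 or m47, of Pcdhb14 without m47 and of Pcdh20 without m115, while the other 13 called members passed in each such fit. Pcdh7 (slope 0.23, adjusted p = 0.0645 by edgeR) and Pcdh11x (slope 0.29, adjusted p = 0.0934 by edgeR) did not pass. Pcdh1 had a slope of 0.02 (SE 0.08).

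**Figure D4:**
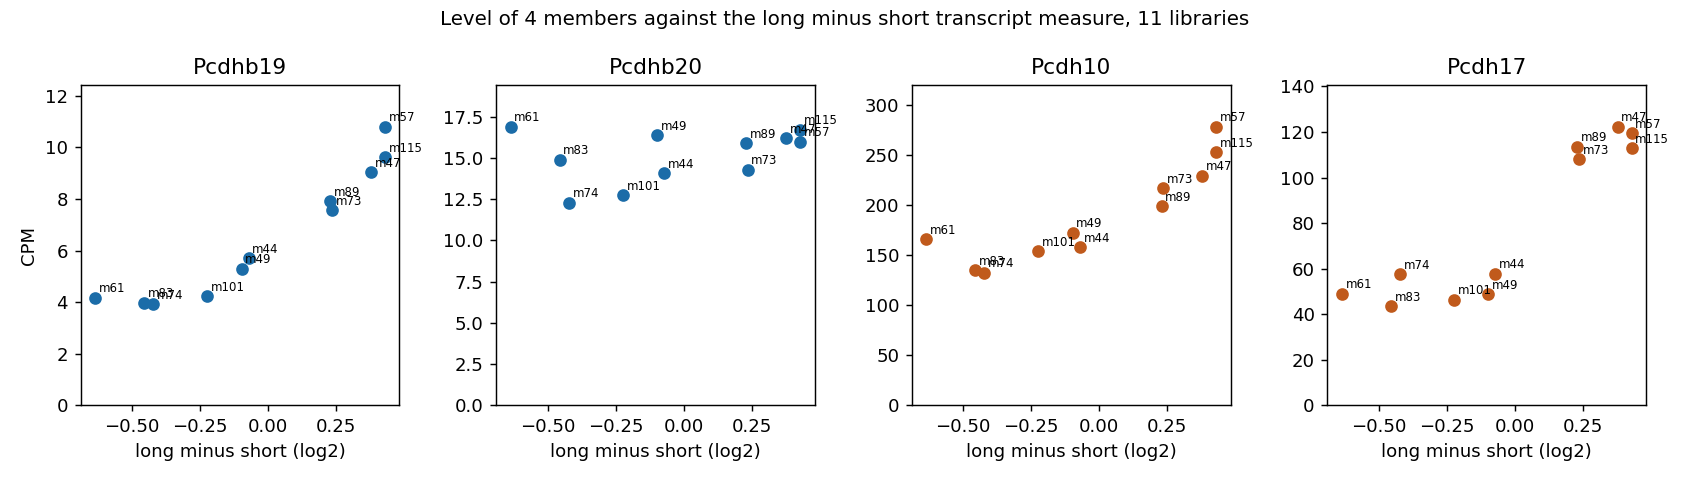
Level in CPM (vertical axes, from 0) of Pcdhb19, Pcdhb20, Pcdh10 and Pcdh17 against the long minus short measure of each library (horizontal axes, log2), 1 labelled point for each of 11 libraries. Pcdhb19 and Pcdh10 rise with largest gaps of 0.280 and 0.193 of their log2 ranges. Pcdhb20 stays between 12.3 and 16.9 CPM, and Pcdh17 steps from at most 57.8 to at least 108 CPM.

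Of the cell type scores, 4 were fitted as slopes, and along these no member of either set was called. Along the projection neuron score, which ranged from -0.46 (m74) to 0.81 (m44), edgeR called 0 of 21 beta and 0 of 11 dispersed members, and DESeq2 called 0 and 0. EdgeR called 0.924% of all genes as rising and 0.0325% as falling. At an unadjusted p under 0.05, 0 and 0 members and 1354 of the 15373 genes passed in edgeR. The projection neuron scores fall into separate clusters, so this slope rests on the gap between them. Along the neuroblast score, from -1.15 (m57) to 1.00 (m47), edgeR called 0 and 0 members (1 and 0 unadjusted, 0 and 0 by DESeq2). Of all genes 0.156% rose and 0% fell, and 384 of 15373 passed unadjusted. Along the score of cortical glutamatergic markers edgeR called 0 members of either set (4 and 0 unadjusted, 0 and 0 by DESeq2) and 0% of the 15373 genes (222 of them unadjusted, 1 by DESeq2). Along the myelin score edgeR called 0 and 0 members (3 and 1 unadjusted, 0 and 0 by DESeq2). Of all genes 0.143% rose and 0.013% fell, and 1700 of 15373 passed unadjusted. None of the 21 beta slopes and 1 of the 11 dispersed slopes along the myelin score lay above 0, with medians of -0.18 and -0.14, against 7279 of 15373 genes. Along the cortical score 3 and 2 lay above 0, with medians of -0.14 and -0.14, against 8190 of 15373. Slopes above 0 were 3 and 4 along the projection neuron score (6803 of all genes) and 15 and 6 along the neuroblast score (6856 of all genes). The myelin score had an r of -0.45 with the long minus short measure, and the part of that measure in the myelin slopes was not tested.

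Regulators, partners and relatives of the protocadherins were followed in 3 lists. Of 12 genes for promoter choice and chromatin at the clusters, 9 rose along the long minus short measure and 0 fell, against 18% of all genes rising and 29.5% of other genes in their length range (4232 to 19982 bases). Some of the 12 lie in the long tail that defines the measure. Rad21, a cohesin subunit (26.0 CPM per kb), rose with a slope of 0.20, and Ctcf, which binds the beta promoters (14.2 CPM per kb), rose with a slope of 0.14. Smc1a, another cohesin subunit (17.6 CPM per kb), had a slope of 0.01 and did not pass. Of 11 genes for cytoplasmic partners, among them the WAVE complex that delta protocadherins recruit to actin, 1 rose (Cyfip1, slope 0.19) and 1 fell (Brk1, slope -0.25). Cyfip1 (11941 bases) is in the long tail and Brk1 (1095 bases) in the short tail that define the measure, so these directions are not independent of it. In the length range of the list 15.6% of other genes rose and 14.7% fell. The most abundant per length were Brk1 (177 CPM per kb), Cyfip2 (105 CPM per kb, slope 0.04) and Nckap1 (86.4 CPM per kb, slope 0.10). Of 7 classical and related cadherins 5 rose, against 18% of all genes and 22.2% of other genes in their length range (3539 to 11233 bases); of the 7, Cdh10 and Cdh13 are in the long tail. Cdh2, N-cadherin (16.3 CPM per kb), had a slope of 0.18 and Cdh9 (6.49 CPM per kb) of 0.27, while Cdh13, second in level per kb, had a slope of -0.09 and did not pass. The median slopes of the 3 lists were 0.28, 0.08 and 0.16, against 0.01 over all genes.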

How the data were processed

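Poly(A) RNA from punches of frozen sections of 300 µm was sequenced in 11 libraries; a stranded kit, 200 ng of RNA and 12 PCR cycles were used per the labels' protocols. The authors deposited whole-number read counts for each gene, without normalization. The submitters' processing notes name HTSeq 0.6.1, Bowtie2 2.1.0, TopHat2 2.0.14 and bcl2fastq 2.17.1.14, with the build mm10. Neither the strand setting nor the annotation release is stated there. GENCODE M21 gave names, positions and lengths for 52403 of 52550 genes, and RefSeq the promoters.

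From the counts, CPM was computed on library sizes scaled by TMM (factors 0.908 to 1.06) under R 4.3.3 and edgeR 4.0.16. Level per length divides CPM by the kb of all annotated exons. Spread is edgeR's biological coefficient of variation from a fit with no covariate, each gene taken alone. Slopes came from edgeR's quasi-likelihood test on 5 library measures, each centred and divided by its SD, with Benjamini-Hochberg adjustment over the 15373 genes past the filter. List scores are mean deviations of log2(CPM + 0.5) from each gene's median. DESeq2 1.42.0 was an alternative. Other steps used Python 3.11.15 with scipy 1.17.1 and matplotlib 3.10.9. The slope and spread steps were tested on simulated data.

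All libraries lack a group, so no genotype comparison, batch or pairing was analysed. Named genes are all members, the 3 most abundant genes per length of each of the 3 lists of regulators, partners and cadherins, and the 5 genes most like Pcdh17 and the beta sum. Other genes named, among them Cyfip1, Arc, the cell type markers and the listed genes in the length tails, were chosen after their values were seen. The members, lists and measures were chosen with earlier results of these data known. Floors cover counting error only. The labels' protocols mention no molecular identifiers.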

Additional observations from a re-analysis of the deposited data

How the results depend on the processing

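No paired analysis was possible because the labels give no groups and no shared replicate numbers. Along the long minus short measure, the 11 beta and 8 dispersed members called became 8 to 11 and 6 to 10 when each library was left out, 10 and 8 without the expression filter, 11 and 9 on unscaled totals, and 11 and 8 with DESeq2 size factors or the DESeq2 test. Among all genes 2767 of 15373 rose, and 2281 (without m47) to 2823 (without m49) when each library was left out. The genes rising were 3303 of 31323 without the expression filter and 3048 of 15375 on unscaled totals. They were 2699 of 15372 with DESeq2 size factors and 2941 of 15373 with the DESeq2 test. Without m61 and m57, which lie at the ends of the measure, 10 beta and 9 dispersed members were called and 2574 of all 15373 genes rose. This alternative was chosen after seeing the data. The calls of no member changed direction under these settings. Among all genes, the DESeq2 test called more than edgeR along the projection neuron score (333 rising and 46 falling, against 142 and 5), the neuroblast score (72 and 3, against 24 and 0) and the myelin score (223 and 42, against 22 and 2), with 0 members in each. With the long minus short measure as a second term, the projection neuron score called 331 and 51 genes. On unscaled totals it called 78 and 3, and the myelin score 7 and 0, or 40 and 5 without the expression filter. Leaving out each library, edgeR called 0.358% (without m44) to 0.969% of genes along the projection neuron score, 0.0846% (without m47) to 0.228% along the neuroblast score and 0.0065% (without m83) to 0.28% (without m74) along the myelin score. The summed dispersed level moved to 110.6 CPM per kb with the longest coding transcript as length, since that divides by a shorter length. Low counts limit Pcdhb1, Pcdhb2 and Pcdh12.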

Other observations

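The Pcdh17 levels of the 11 unassigned libraries fall into separate clusters, with a largest gap of 0.604 of the log2 range and 6 libraries below it and 5 above. Pcdh17 was the only one of the 32 members past the filter with such a gap (over 0.5 of a log2 range of at least 1, with at least 2 libraries on each side), which 0.371% of the 15373 genes past the filter had. The 5 genes outside the family whose pattern was most like that of Pcdh17 over the 11 libraries were Top2b, Dixdc1, Dzank1, Gm43197 and Snx13, on chromosomes 14, 9, 2, 6 and 12. Gm43197 was near the floor, at 0 CPM in m101, m61 and m83 and at most 0.271 CPM in m49, m44 and m74. It reached the 1 CPM of the filter only in the libraries of high Pcdh17, at 1.30 (m73) to 2.45 CPM (m57). Top2b, a topoisomerase of neurons, stood at 124 CPM in m115, 133 in m47, 122 in m73, 111 in m89 and 131 in m57. In the other libraries it stood at 72.97 CPM in m49, 72.8 in m101, 80.2 in m44, 71.6 in m61, 65.6 in m83 and 78.8 in m74. No r is given for these genes because it would rest on the gap.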
